A study of Mus musculus with 2 samples.

Results

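The glandular epithelium of the mouse uterus at gestational day 3.5 was described in single-cell RNA libraries from 2 genotypes. The control library was labelled Mig-6f/f, female mice with floxed Mig-6 and no Cre in the label. The other, labelled knockout, was Pgrcre/+Mig-6f/f, which adds Cre from 1 allele of the progesterone receptor gene (Pgr), so that deletion is directed to cells that express Pgr. Both carry the floxed Mig-6 allele, and the labels give neither the age of the mice nor how many were pooled into a library. Mig-6 is the protein of Errfi1, a feedback inhibitor of the EGF receptor. Members were chosen by their marker levels. A barcode was kept with 500 or more detected genes and no more than 15% of its UMIs (unique molecular identifiers, the unit in which transcripts were counted) from mitochondria. It then needed at least 10 UMIs per 10,000 of the epithelial genes Epcam, Krt8, Krt18 and Cldn7, and under 5 per 10,000 of the stromal genes Dcn, Col1a2 and Col3a1. It also needed a gland sum, the summed Prss29, Prss28, Spink1, Cxcl15 and Krt83, of at least 10 per 10,000. This left 205 glandular cells among 7745 deposited barcodes, 103 in the control library and 102 in the library labelled knockout.

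Uterine glands are invaginations of the luminal epithelium that secrete into the uterine lumen. Their secretions nourish the embryo before it attaches and include leukemia inhibitory factor (LIF), which is needed for implantation in the mouse. FOXA2 is the transcription factor that glands need to form and to make LIF. Around implantation, estrogen and progesterone act on the epithelium in opposite ways, with estrogen driving a mucosal defence programme in luminal cells and progesterone restraining it.

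Prss28 and Prss29, neighbouring genes for implantation serine proteases, and Cxcl15, a lung and gland chemokine, are shown by their promoters because their levels differed between the libraries by nearly equal factors. RefSeq sequences were read on GRCm38.p6, another build than the mm39 of the files, from 250 bases before to 50 after the start. They lie at chr17:25308396-25308695, chr17:25318404-25318703 and chr5:90794284-90794583, all on the plus strand. Capitals in Prss28 and Prss29 mark the runs of at least 12 bases that both share, and capitals in Cxcl15 a forkhead-type word:
Prss28: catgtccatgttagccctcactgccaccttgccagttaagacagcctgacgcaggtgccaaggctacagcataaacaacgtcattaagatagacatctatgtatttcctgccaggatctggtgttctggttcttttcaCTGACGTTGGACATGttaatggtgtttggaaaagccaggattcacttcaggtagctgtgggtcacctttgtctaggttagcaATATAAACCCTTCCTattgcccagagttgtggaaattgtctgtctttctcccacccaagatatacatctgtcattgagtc
Prss29: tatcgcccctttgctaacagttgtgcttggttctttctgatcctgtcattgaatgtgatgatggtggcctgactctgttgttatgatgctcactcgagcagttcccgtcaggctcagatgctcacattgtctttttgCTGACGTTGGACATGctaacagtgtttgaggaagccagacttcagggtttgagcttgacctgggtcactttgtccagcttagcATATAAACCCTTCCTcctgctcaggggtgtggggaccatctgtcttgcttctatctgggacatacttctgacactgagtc
Cxcl15: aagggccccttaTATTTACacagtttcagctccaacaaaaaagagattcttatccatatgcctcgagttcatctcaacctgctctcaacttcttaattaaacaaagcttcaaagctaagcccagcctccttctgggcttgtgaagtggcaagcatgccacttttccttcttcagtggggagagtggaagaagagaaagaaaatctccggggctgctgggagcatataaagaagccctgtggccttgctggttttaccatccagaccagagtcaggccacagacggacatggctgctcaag

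The Prss28 and Prss29 starts are 10008 bases apart, and their windows align at 63.3% identity, against 48.0% for Prss28 with Cxcl15. The 2 shared runs are each 15 bases long, and the second holds a TATAAA word that begins 29 bases before the start in both genes. Cxcl15 has TATAAA 27 bases before its start. Over both strands TATAAA occurs in 13.6% of 32851 RefSeq promoter windows of this length. The forkhead words TGTTTAC or TATTTAC, on either strand, occur in 6.54% of the windows and in 3 of the 50 genes named here by rank or as gland markers that matched a window (of 70), namely Cxcl15, Galntl6 and S100g. A match is a description of these letters and not of binding.

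The control library held 44871170 UMIs and the library labelled knockout 23317904. Epithelial cells were 725 of 4462 kept control barcodes and 1435 of 2951 in the library labelled knockout. Glandular cells were 14.2% of control epithelial cells (exact 95% interval 11.7 to 17.0) and 7.11% of those labelled knockout (5.83 to 8.56), but 2.31% and 3.46% of all kept barcodes. The order of the shares therefore depends on the denominator. Tissue was digested with trypsin, and its part in the shares was not tested. Glandular cells were less deep in the library labelled knockout, with medians of 5772 against 10667 UMIs. Each group is 1 library, so no test was made, every difference is one between these libraries, and intervals cover counting error only. The libraries shared 3 barcode sequences, none of them in a glandular cell.

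Errfi1, the targeted gene, was 831 and 594 CPM in control glandular cells and those labelled knockout (CPM is 100 times the level per 10,000 UMIs, over the summed cells), 1.4-fold lower (1.25 to 1.56), and 539 and 509 CPM in other epithelial cells. Glandular cells labelled knockout thus still held Errfi1 transcripts, and UMIs from outside a deleted part of the gene would not show a deletion. In the glandular cells with at least 20 per 10,000 of the 12 gland-high genes described further on it was 842 and 735 CPM.

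The values that chose the members differed between the libraries and are given as description. The median gland sum was 193 per 10,000 UMIs in control members and 70.6 in members of the library labelled knockout. In the control, 77 members reached 100 per 10,000 and 93 held 4 or 5 of the 5 markers, against 36 and 35 members of the library labelled knockout. There 26 members held 1 or 2 of the markers, and 5 members passed on 5 or fewer marker UMIs. The control cell nearest below the threshold had 6.36 and the nearest above it 12.8 per 10,000. In the library labelled knockout these were 9.44 and 10.04. There 23 of 1435 epithelial cells lay between 5 and 10, against 1 of 725 in the control. The control thus had no epithelial cell between 6.36 and 12.8 per 10,000, a range in which the library labelled knockout held cells.

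Of the markers themselves, Prss29 was 14619 and 4223 CPM in control cells and cells labelled knockout, 3.46-fold lower (3.33 to 3.6). Prss28 was 1362 and 382 CPM, 3.57-fold (3.15 to 4.05) lower, Cxcl15 255 and 72.1 CPM, 3.53-fold (2.65 to 4.79) lower, and Krt83, a hair-type keratin, 989 and 329 CPM. Spink1, a trypsin inhibitor, was within 2-fold at 5516 and 4687 CPM. Prss28 and Prss29 are related in sequence, and reads that fit both cannot be told apart here. Prss28 had a UMI in 78 of 103 control cells and in 38 of 102 cells labelled knockout, while Spink1 had one in 100 and 98.

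Marker lists of other cell types were low in the glandular cells, except for 1 macrophage gene. The 8 stroma genes summed to 6.29 CPM in control cells and 0 in cells labelled knockout, the 5 endothelial genes to 2.36 and 5.25 CPM, and the 7 NK and T cell genes to 0.786 and 2.62 CPM. The 5 smooth muscle genes summed to 18.9 and 7.87 CPM, with a UMI in 15 and 5 cells. The 6 ciliated cell genes summed to 26.7 and 5.25 CPM, with a UMI in 29 of 103 and 4 of 102 cells, most of them from Tppp3, while Foxj1, Dynlrb2 and Pifo were at 0. The 4 mesothelial and 4 hemoglobin genes were at 0 in both. The 6 macrophage genes summed to 522 and 228 CPM, with a UMI in 34 and 21 cells, of which Lyz2, lysozyme, made up 517 and 223 CPM. Of the other 5, Cd68 had 5 and 4 UMIs, C1qb and Csf1r had 1 control UMI each, and C1qa and Adgre1 had 0. What part RNA of ciliated, muscle or macrophage cells has in the differences between the libraries was not tested.

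**Figure D1:**
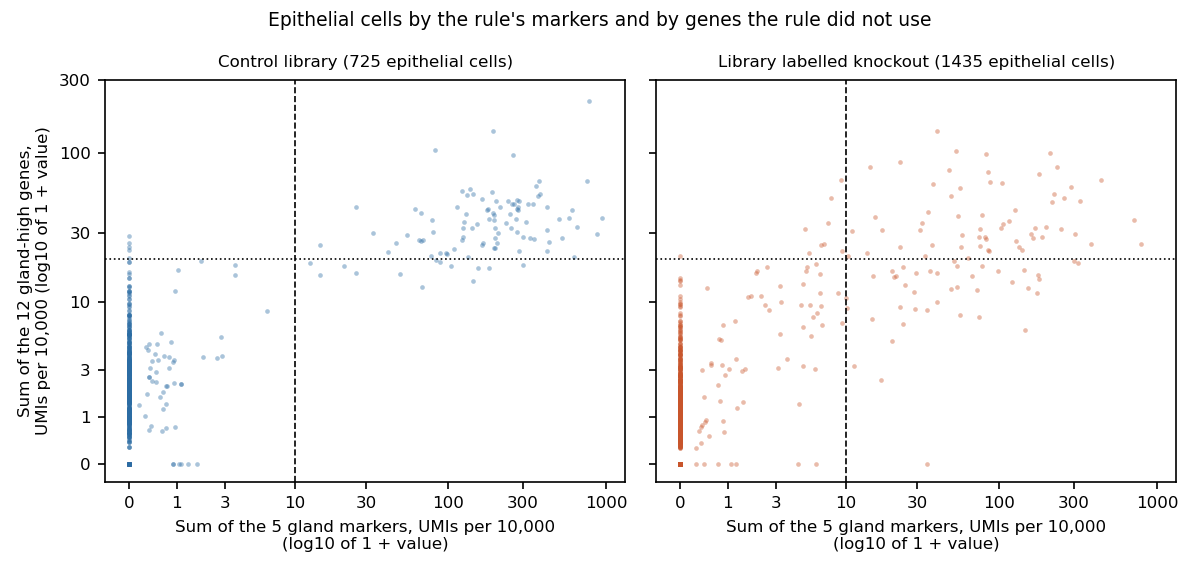
Each point is 1 epithelial cell. The x axis is the summed level of the 5 gland markers and the y axis that of 12 gland-high genes. The rule did not use the 12 genes, but they were ranked on these same cells. Both axes are in UMIs per 10,000 on a log10 scale of 1 + value. The dashed line is the rule's 10 per 10,000, the dotted line 20 per 10,000. No control cell lies between 6.36 and 12.8 per 10,000 on the x axis. Between 5 and 10 per 10,000 lie 1 of 725 control cells and 23 of 1435 cells labelled knockout.

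Genes outside the rule also set the glandular cells apart. Against other epithelial cells of the same library, 12% of 11797 measured genes were at least 2-fold higher and 15.7% at least 2-fold lower in the control, and 16.2% and 9.21% of 11558 in the library labelled knockout. Measured means at least 20 UMIs over the cells compared. In both libraries 6.56% of 11065 genes were at least 2-fold higher and 5.85% lower. Since the gland sum chose the cells, these shares describe the classes and support nothing more.

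The 12 genes ranked most gland-high in both libraries were Gas6, Galntl6, Piezo2, Igfbp4, Bex1, Lyz2, Wfdc18, Sbspon, Tshr, Pla2g7, Gulp1 and Krt23. Gas6, the ligand of the TAM receptor kinases, was 613 and 513 CPM in glandular cells and 2.77 and 9.6 CPM in other epithelial cells. Tshr, the thyrotropin receptor, was 208 and 219 CPM against 22.5 and 20.8 CPM, so that its level hardly differed between the libraries. Wfdc18, a secreted whey acidic protein, was 508 and 895 CPM against 49.6 and 5.28 CPM. Krt23, a keratin, was 675 and 338 CPM against 88.4 and 33.1 CPM, and Igfbp4, which binds insulin-like growth factors, 215 and 53.8 CPM against 3.62 and 2.9 CPM. Lyz2 was held by few cells, with 93.5% of its control UMIs and 89.4% of those labelled knockout in 10 cells. The summed 12 genes had a median of 32.4 per 10,000 in control members and 24.3 in members labelled knockout, against 1.92 and 0.383 in other epithelial cells. A level of 20 per 10,000 was reached by 90 of 103 control members and 61 of 102 members labelled knockout, and by 5 and 9 other epithelial cells. Because the 12 genes were ranked on these same cells, their separation from other epithelial cells follows from that choice and supports nothing more. The 12 genes are gland-high within the epithelium, and their median sum in stromal cells was 10.2 and 9.38 per 10,000.

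The genes ranked most gland-low in both libraries included Prap1, Spp1, Sprr2b, Ly6a, Krt12, Ncam1, Ctsl, Cftr, Sema3e, Cfb and Nckap5. Prap1, a secreted acidic protein of the uterine epithelium, was 2.36 and 125 CPM in glandular cells and 1459 and 13384 CPM in other epithelial cells, 619-fold and 107-fold lower. Spp1, osteopontin, had 0 UMIs in control glandular cells and 10 in those labelled knockout, against 293 and 1378 CPM outside the glands. Cftr, the chloride channel, was 2.36 and 14.4 CPM against 132 and 206 CPM. Because these genes were ranked as gland-low on these same cells, their low glandular level follows from that choice and supports nothing more.

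The gland list holds 16 further gland genes, of which 14 were measured. Between the libraries 1 was at least 2-fold higher in glandular cells labelled knockout, 4 were at least 2-fold lower and 9 were within 2-fold, with a median log2 ratio of -0.47. Over all 8403 genes measured in glandular cells, 401 (4.77%) were at least 2-fold higher in the library labelled knockout and 463 (5.51%) at least 2-fold lower, at a median of -0.03. With the mean UMIs of immune or endothelial cells subtracted as free RNA, 1631 were higher and 919 lower. The lower members were Lif, Calca, Gkn3 and Ttr. In other epithelial cells 10 list members were measured, 4 higher and 2 lower at a median of 0.41. There 5.63% of all 13153 measured genes were higher and 14.6% lower.

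Foxa2 was 69.2 and 36.7 CPM in glandular cells, 1.88-fold lower (1.22 to 2.99) and thus short of the 2-fold size. It had a UMI in 53 of 103 control cells and 22 of 102 cells labelled knockout, 51.5% and 21.6%, with 0.03% and 0% of stromal cells as background. Each cell was also thinned to 2000 UMIs, which left out 1 control cell and 5 labelled knockout. The shares were then 12.7% (6.96 to 20.8) and 5.15% (1.69 to 11.6). Both shares were lower in the library labelled knockout, but the thinned ones rest on 13 and 5 cells and their intervals overlap. Outside the glands it was 1.17 and 6.99 CPM, with a UMI in 9 of 622 and 93 of 1333 cells.

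Lif rested on 28 and 6 UMIs, 22.0 and 7.87 CPM in glandular cells. It had a UMI in 23 of 103 and 5 of 102 of them, against 66 of 622 and 248 of 1333 other epithelial cells. Thinned to 2000 UMIs these were 3.92% and 1.03% of glandular cells (4 and 1 cells), too few to compare. In both libraries most epithelial Lif UMIs came from outside the gate, where most epithelial cells lay. Lif was 8.54 CPM in the 621 control epithelial cells with a gland sum under 5, and 19.7 CPM in the 1310 such cells labelled knockout. By level, Lif was therefore higher in glandular cells than in these cells in the control. It was lower in glandular cells in the library labelled knockout, on 6 glandular UMIs. Calca, the calcitonin gene and a progesterone target, had 96 UMIs in control glandular cells and 1 in those labelled knockout, 75.5 and 1.31 CPM. Gkn3, a gastrokine, was 194 and 32.8 CPM, 5.92-fold lower (3.92 to 9.33), and Ttr, transthyretin, 66.8 and 17.1 CPM. Outside the glands Gkn3 was 0.213 and 0.237 CPM.

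Other members of the gland list were mostly closer between the libraries. Sox9 was 223 and 281 CPM, Sox17 290.1 and 254 CPM and Pax8 218 and 152 CPM, all transcription factors of the gland or ductal epithelium. Sox9 and Sox17 were not confined to the glands. Sox9 had a UMI in 77.7% and 63.7% of glandular cells and in 61.6% and 67.4% of other epithelial cells. For Sox17 these were 89.3% and 66.7%, and 74.6% and 50.1%. Cldn10, a claudin, was 1307 and 1448 CPM and Aldh1a1, a retinoic acid enzyme, 58.2 and 53.8 CPM. The list member at least 2-fold higher was Fxyd4, an ion transport regulator, at 14.2 and 38.0 CPM on 18 and 29 UMIs, and it turned to the opposite direction at a gland sum of at least 50 per 10,000 (log2 -2.25).

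The largest lower genes by rank, 12 of 103 that met the size and level rule, included secreted and transport genes. Ovgp1, oviductal glycoprotein, was 227 and 39.4 CPM, 5.77-fold lower (3.96 to 8.71). Lbp, the lipopolysaccharide-binding protein, was 521 and 105 CPM, and Hpx, the heme carrier hemopexin, 109 and 20.99 CPM. S100g, the calcium-binding calbindin-D9k, was 4325 and 1397 CPM, 3.1-fold lower (2.9 to 3.31), and other epithelial cells had 9160.0 and 2625 CPM. Slc2a3, the glucose transporter GLUT3, was 579 and 164 CPM. Pla2g10, a secreted phospholipase, and Ryr3, a calcium release channel, both had 140 and 14 UMIs. Hdac9, a histone deacetylase, had 83 and 3. Arl4d and Slc41a3, a small GTPase and a magnesium transporter, were 62.9 and 9.18 CPM and 81.8 and 14.4 CPM. Several of these were lower outside the glands too, as for Slc2a3 at 109 and 3.85 CPM and Ovgp1 at 193 and 10.3 CPM.

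The largest higher genes were ranked among 108, after 16 more were left out for a level under 0.25 of that in another cell class, among them Prap1 at 2.36 and 125 CPM and Pglyrp1 at 0.786 and 69.5 CPM. Of the 12 named, 10 had a higher level in other epithelial than in glandular cells of the library labelled knockout. Lcn2, lipocalin-2, which binds bacterial siderophores, was 56.6 and 1712 CPM in glandular cells, 30.2-fold higher (23.8 to 38.9), and 1752 and 5776 CPM in other epithelial cells. Ltf, lactoferrin, was 14.2 and 411 CPM, 29.0-fold higher (18.1 to 49.6), against 608 and 1598 CPM outside the glands. Sprr2f, a small proline-rich protein induced by estrogen, was 105 and 1460.0 CPM, 13.9-fold higher (11.6 to 16.7), against 4298 and 5199 CPM. Sprr2f shares sequence with its family, so its value is uncertain. For each of these, control glandular cells were over 30-fold below other epithelial cells (31.0-fold for Lcn2, 42.9-fold for Ltf and 40.8-fold for Sprr2f). In the library labelled knockout the gap was 3.37-fold, 3.89-fold and 3.56-fold over the summed cells. Without the 10 cells with the most Lcn2 UMIs, the other 92 had Lcn2, Ltf and Sprr2f at 692, 102 and 772 CPM. These levels lay further below other epithelial cells. Lcn2 chose the 10 cells, so no gap is given for the 92. The median glandular cell labelled knockout had 0 UMIs of Ltf and 0 of Sprr2f.

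Wfdc2, a secreted protease inhibitor, was 347 and 1726 CPM in glandular cells, 4.98-fold higher (4.47 to 5.56), while other epithelial cells differed little at 5217 and 6302 CPM. Sftpd, surfactant protein D of mucosal defence, was 10.2 and 165 CPM, against 373 and 419 CPM, and the chemokine Cxcl17 12.6 and 110.2 CPM, against 273 and 339.8 CPM. Pmepa1, a TGF-beta pathway inhibitor, was 4.72 and 105 CPM and Serpinf1, pigment epithelium-derived factor, 3.15 and 68.2 CPM. Tmsb4x, thymosin beta 4, was 579 and 2887 CPM and Car2, carbonic anhydrase 2, 21.2 and 143 CPM. In immune or endothelial cells of the library labelled knockout, Pmepa1, Tmsb4x and Car2 were above their glandular level at 272, 6843 and 219 CPM, and in its stromal cells Pmepa1, Serpinf1 and Tmsb4x at 269.9, 162 and 4172 CPM. The part of these cells in the glandular levels was not tested. Sprr1a and Cbr2 were the exceptions by summed level, higher in glandular than in other epithelial cells labelled knockout. They were at 182 against 109.8 CPM and 129.9 against 82.9 CPM. For Sprr1a, 10 of the 102 glandular cells held 79.1% of the UMIs, and the median cell had 0. By cells its order was the other way, with a UMI in 27.5% of glandular and 37.7% of other epithelial cells labelled knockout. These cells had median depths of 5772 and 9903 UMIs. Sprr1a is a cornified envelope protein and Cbr2 a carbonyl reductase.

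**Figure D2:**
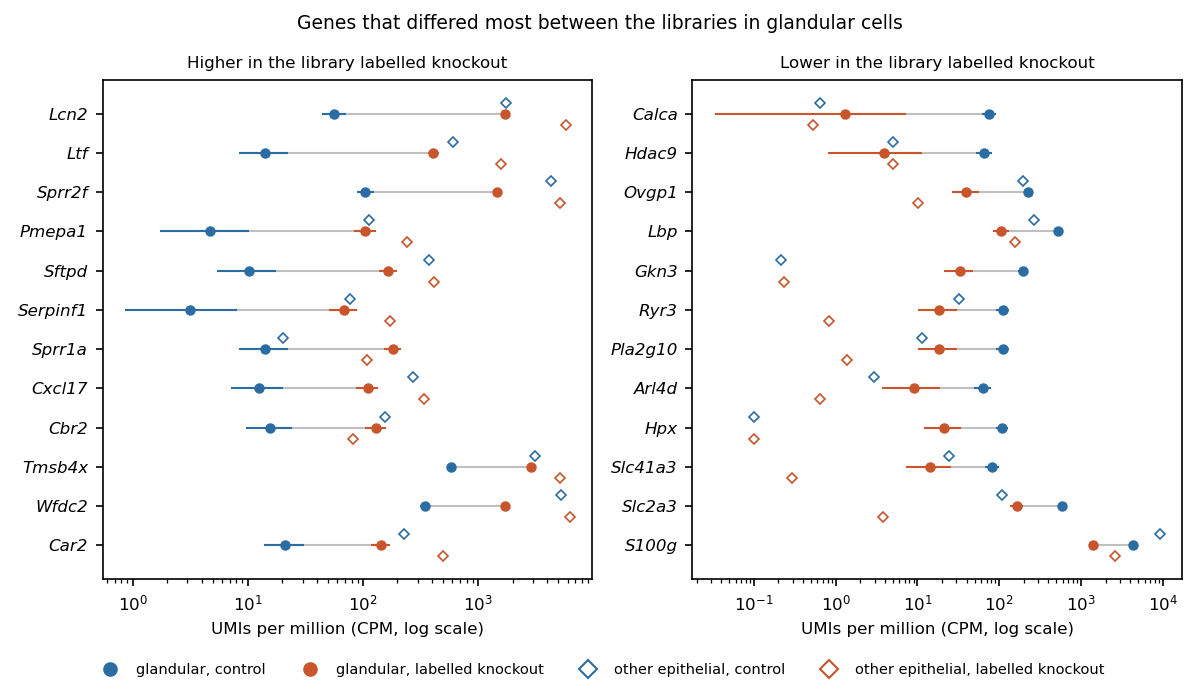
Filled points are summed levels in glandular cells of each library with their 95% Poisson intervals, and open diamonds the levels in other epithelial cells, on a log scale of CPM (levels under 0.1 are drawn at 0.1). For Lcn2, Ltf and Sprr2f the point labelled knockout lies between control glandular cells and other epithelial cells. These points are sums, and for each gene 10 of the 102 cells held 66.7%, 82.7% and 74.3% of the UMIs. In the control 10 of the 103 glandular cells held 70.8%, 100% and 88.8%.

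These higher levels were unevenly spread over the cells. The median glandular cell had 0 Lcn2 UMIs in the control and 5.07 per 10,000 in the library labelled knockout, and 25 of 103 and 74 of 102 cells had a UMI (5.88% and 56.7% with cells thinned to 2000 UMIs). Stromal cells had one in 2.31% and 11.7%, at median depths of 8944 and 3643 UMIs. The 10 cells with the most Lcn2 UMIs held 66.7% of all Lcn2 UMIs of the 102, at 6496 CPM. Ltf and Sprr2f were concentrated as well, with 82.7% and 74.3% of their UMIs in 10 cells each. The fewer control UMIs were also concentrated. There 10 of the 103 glandular cells held 70.8%, 100% and 88.8% of the 72 Lcn2, 18 Ltf and 134 Sprr2f UMIs.

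The 10 cells with the most Lcn2 differed from the other 92 in their gland genes. Their median gland sum was 20.7 per 10,000 against 77.2, and that of the 12 gland-high genes 9.01 against 26.8. They were deeper, with medians of 11174.5 against 5089 UMIs, in part because a choice by raw UMIs favours deep cells. Their Prap1 was 441 against 57.3 CPM. A level of 20 per 10,000 of the 12 gland-high genes was reached by 2 of the 10 and 59 of the 92. The 10 cells had Ltf at 1859 and Sprr2f at 4689 CPM, where other epithelial cells had 1598 and 5199 CPM. What these 10 cells are was not tested. The other 92 cells had Lcn2 at 692 CPM, and since Lcn2 chose the cells no fold is given without them. Without the 10 cells with the most Lcn2 UMIs in each library, Wfdc2 was 3.58-fold (3.14 to 4.09) and C3 8.41-fold (6.16 to 11.7) higher. Ltf went from 29.0-fold to 6.72-fold (3.89 to 12.2) and Sprr2f from 13.9-fold to 7.52-fold (6.13 to 9.3), so their size rested in part on those cells.

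A second gate was set on the glandular cells, with genes ranked on these same cells, so its folds are given as description. In glandular cells that also had at least 20 per 10,000 of the 12 gland-high genes, 90 and 61 cells, Lcn2 was 53.0 and 887 CPM, 16.7-fold (12.7 to 22.3) higher. Ltf was 9.78-fold (5.24 to 19.6), Sprr2f 9.16-fold (7.35 to 11.5) and Wfdc2 2.84-fold (2.44 to 3.3) higher there. These folds were smaller than in all glandular cells. Gkn3 was 3.99-fold lower (2.62 to 6.36) and Calca had 85 and 1 UMIs. S100g was 3.66-fold lower (3.34 to 4.004), a larger fold than in all glandular cells, as for the marker Cxcl15 at 4.11-fold lower (2.8 to 6.24). With the 12 gland-high genes in place of the gland sum, which brings in 5 control cells with Lcn2 at 2547 CPM, the log2 ratio of Lcn2 was 2.52 in place of 4.92, of Ltf 1.81 in place of 4.86, of Sprr2f 1.78 in place of 3.79 and of Wfdc2 1.02 in place of 2.32.

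The gland sum chose the members, so levels along it are given as description. In the library labelled knockout Lcn2 was 2572 CPM in the 23 epithelial cells at 5 to 10 per 10,000, 4505 in the 12 cells at 10 to 20, 2104 in the 28 cells at 20 to 50, 1363 in the 26 cells at 50 to 100 and 556 in the 36 cells at 100 or more. The control had 33.7 CPM in its 77 cells at 100 or more, and its other bins, like the bin of 12 cells at 10 to 20 labelled knockout, held under 20 cells. Ltf was 71.1 against 11.2 CPM and Wfdc2 564 against 238 CPM at 100 or more. That bin is open upwards and reached 938 per 10,000 in the control and 789 in the library labelled knockout. Foxa2 was 29.9 and 30.5 CPM at 20 to 50 (7 control cells), 56.0 and 39.7 CPM at 50 to 100 (16 control cells), and 74.5 and 46.0 CPM at 100 or more. The bin at 20 to 50 rested on 2 and 6 Foxa2 UMIs. At 10 to 20 Foxa2 was 70.6 and 20.1 CPM on 2 UMIs each (3 and 12 cells). These low bins hold too few UMIs to compare the libraries.

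**Figure D3:**
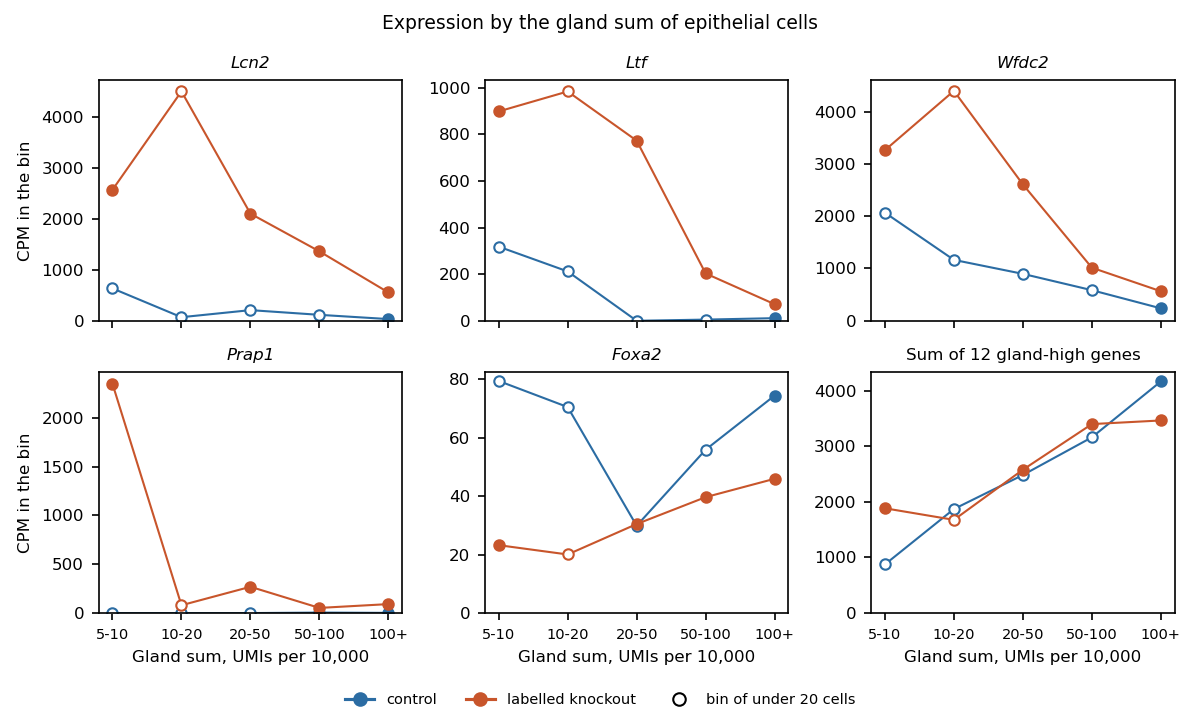
Summed levels in CPM of epithelial cells binned by the gland sum (x axis, UMIs per 10,000) for each library, with hollow points for bins of under 20 cells. Lcn2 in the library labelled knockout is 2572 CPM at 5 to 10 and 556 CPM at 100 or more, against 33.7 CPM in control cells at 100 or more.

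The higher genes were also set against Prap1, the gene ranked most gland-low, in every cell class. Because Prap1 was chosen for its low glandular level, a gene less gland-low than Prap1 has a higher ratio in glandular cells by that choice, and the ratios are a description. In the library labelled knockout there were 0.432 Lcn2 UMIs per Prap1 UMI in other epithelial cells, 0.415 in stromal cells and 0.441 in immune or endothelial cells. Glandular cells had 13.7 (11.1 to 17.1). Ltf per Prap1 was 3.29 in glandular against 0.119 in other epithelial cells, Sprr2f 11.7 against 0.388 and Wfdc2 13.9 against 0.471. Spp1, on 10 glandular UMIs, was 0.105 (0.0489 to 0.202) against 0.103 in other epithelial, 0.122 in stromal and 0.983 in immune or endothelial cells. Glandular Prap1 was 0.931% and glandular Lcn2 29.6% of the level in other epithelial cells. With the mean UMIs of immune or endothelial cells subtracted as free RNA, the log2 ratio between the libraries was 4.58 for Lcn2 and 4.53 for Ltf. It was 3.43 for Sprr2f and 1.93 for Wfdc2. The part of free RNA in the ratios to Prap1 was not tested. Doublet removal took 1 glandular cell labelled knockout and 0 control cells and left Lcn2 at a log2 ratio of 4.93.

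**Figure D4:**
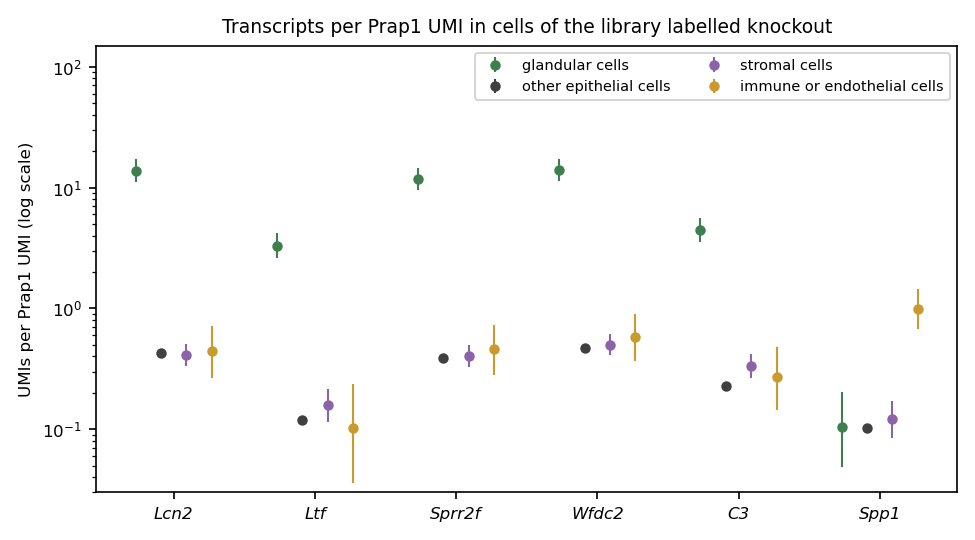
UMIs of each gene per UMI of Prap1, chosen as the most gland-low gene (log scale), in 4 cell classes of the library labelled knockout, with 95% intervals for counting error. Lcn2, Ltf, Sprr2f, Wfdc2 and C3 lie higher in glandular cells than in the other 3 classes, and Spp1 lies at 0.105 in glandular and 0.103 in other epithelial cells.

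Secreted antimicrobial and mucosal proteins split in both directions, with 6 of 11 measured members past 2-fold upwards and 4 downwards. The median log2 ratio was 1.08, and of all genes 4.77% were higher and 5.51% lower. Like all lists here, this one was chosen with earlier results of these data known, so its counts are a description. Ltf, Lcn2 and C3 are counted again in the estrogen response below. The higher ones included Ltf, Lcn2, Wfdc2, complement C3 (53.5 and 552 CPM) and the chaperone clusterin, Clu (319 and 676 CPM). Complement factor B or Cfb was also higher, at 1.57 and 42.0 CPM on 2 and 32 UMIs. In other epithelial cells Clu was 71.8 and 136 CPM. The lower ones were S100g, Lyz2, Wfdc15b (533 and 199 CPM) and the lectin Reg3g (19.7 and 6.56 CPM). Pigr, which carries antibodies across the epithelium, was 92.0 and 110.2 CPM.

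The epithelial estrogen response was measured in glandular cells for 17 members, 7 of them past 2-fold upwards and 2 downwards, with a median log2 ratio of 0.58. In other epithelial cells 10 of 22 were higher and 2 lower, at a median of 0.71, where 5.63% of 13153 genes were at least 2-fold higher and 14.6% lower. Beside Ltf, Lcn2, C3 and Sprr2f, the higher ones in glands were Clca1, a secreted mucin-processing protein, the gap junction gene Gjb2 and Padi4, a peptidylarginine deiminase, on 21, 34 and 16 UMIs labelled knockout. Clca1 was 3.15 and 27.5 CPM in glandular but 1.17 and 671 CPM in other epithelial cells. Other members were within 2-fold, such as Greb1 at 248 and 273 CPM, Muc1 at 54.3 and 81.3 CPM and Padi1 at 716 and 1005 CPM. Aqp5, a water channel, was 751 and 220.4 CPM, 3.41-fold lower (2.89 to 4.04).

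The epithelial progesterone response was measured for 12 members in glandular cells, 0 past 2-fold upwards and 4 downwards, with a median of -0.74, where 5.51% of all genes were lower. Other epithelial cells had 2 of 16 higher and 12 lower, at a median of -3.11, where 14.6% of all genes were lower. The lower glandular members were Calca, Ihh, Alox15 and Mme. Ihh, the hedgehog ligand that signals to the stroma, was 51.9 and 11.8 CPM in glands and 31.7 and 0.593 CPM outside them. Alox15, a lipoxygenase, was 712 and 278 CPM, 2.56-fold lower (2.2 to 2.99), and Mme, the membrane peptidase neprilysin, 292 and 90.5 CPM, 3.23-fold lower (2.49 to 4.24). Outside the glands they were 217 and 24.9 CPM and 308 and 16.5 CPM. Hdc, which makes histamine, and Lrp2, the endocytic receptor megalin, were within 2-fold in glands at 65.3 and 42.0 CPM and 88.1 and 64.3 CPM, but 435 and 17.9 CPM and 118 and 15.8 CPM outside them. Of the luminal list, 6 members were measured in glands, 1 higher and 1 lower at a median of -0.10, and 9 in other epithelial cells, 0 higher and 5 lower at -2.84. In the control, 5 of 8 measured members were already at least 2-fold lower in glandular than in other epithelial cells and 1 was higher. Over all genes these shares were 15.7% and 12%. In the library labelled knockout 1 of 7 was lower and 2 were higher, at a median of 0.56. There 9.21% of all genes were lower and 16.2% higher. Whether the classes differ was not tested.

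**Figure D5:**
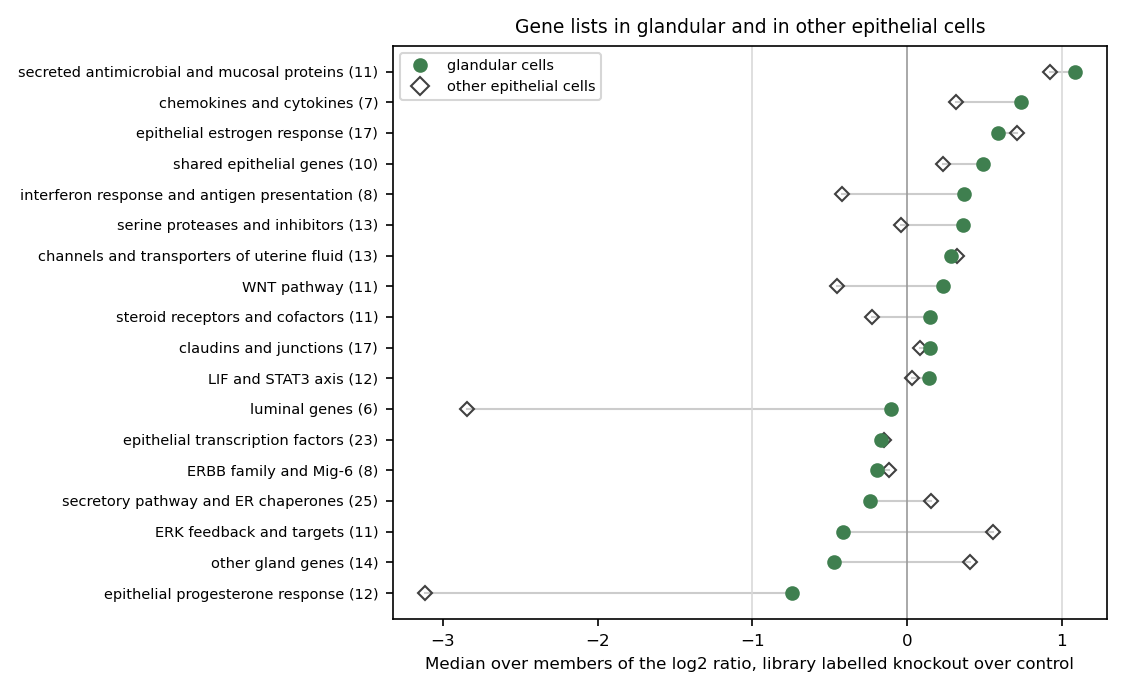
Median log2 ratio of the library labelled knockout over control for the members of each list in glandular cells (filled) and in other epithelial cells (open), with the number of members measured in glandular cells in brackets. The progesterone response is -0.74 and -3.11, and the luminal list -0.10 and -2.84.

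The receptors of progesterone and estrogen differed little. Pgr was 72.3 and 60.3 CPM in glandular cells and the estrogen receptor Esr1 760.3 and 918 CPM. The coactivator Ncoa3 was 28.3 and 13.1 CPM, on 36 and 10 UMIs. Nrip1, a corepressor, was 321 and 355 CPM and Fkbp4, a receptor cochaperone, 693 and 535 CPM.

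Counts in the lists that follow stand against 4.77% of all genes higher and 5.51% lower in glandular cells, and 5.63% and 14.6% in other epithelial cells, and counts of 1 to 3 members are not read as results about a list. Of the ERBB family, 8 of 15 members were measured and 1 was at least 2-fold higher, the receptor Egfr at 5.5 and 26.2 CPM on 7 and 20 UMIs. Its ligand Hbegf was 91.2 and 169 CPM. ERK feedback genes had 0 of 11 members higher and 2 lower, the phosphatases Dusp4 (14.9 and 3.94 CPM) and Dusp5 (106 and 47.2 CPM), at a median of -0.42. In other epithelial cells 5 of 14 were higher and 0 lower at a median of 0.55, with Phlda1 at 185 and 828 CPM against 599 and 512 CPM in glands.

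Receptors and targets of LIF were measured for 12 of 16 list members, 2 higher and 1 lower. Il6st, the shared receptor subunit gp130, was 971 and 548 CPM in glandular cells, 1.77-fold lower (1.58 to 1.98), and 183 and 177 CPM outside them. The receptor Lifr was 28.3 and 31.5 CPM, below the 245 and 157 CPM of other epithelial cells. Stat3 was 175 and 220.4 CPM, while its partner Cebpb was 43.2 and 87.9 CPM and the receptor Il6ra 7.08 and 36.7 CPM on 9 and 28 UMIs. Glandular cells thus held gp130 at a higher level than the rest of the epithelium in both libraries.

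The machinery of secretion was level. Of 25 measured genes of the secretory pathway and endoplasmic reticulum, 0 were past 2-fold either way and the median was -0.24. The chaperone Hspa5 was 1202 and 1149 CPM, Hsp90b1 961 and 916 CPM, and Xbp1, the transcription factor of secretory cells, 242 and 203 CPM. Serine proteases and inhibitors other than the markers had 2 of 13 members higher and 0 lower. These were the kallikrein Klk1 (38.5 and 91.8 CPM) and Serpinb1a, which had 0 UMIs in control cells and 24 labelled knockout. With the control set to a floor of 3 counts Serpinb1a was 13.3-fold higher, a value that depends on the floor. It counted as measured only through its UMIs in the library labelled knockout.

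Junction and keratin genes were counted next. Among claudins and junctions 1 of 17 measured members was at least 2-fold higher, Gjb2, and 0 were lower, near the 4.77% and 5.51% of all genes. Of 10 shared epithelial genes 3 were higher and 0 lower. Krt19, a keratin of simple epithelia, was 31.5 and 171 CPM, 5.42-fold higher (3.78 to 7.93), against 268 and 459 CPM outside the glands. Channels and transporters had 4 of 13 higher and 1 lower, with the chloride cotransporter Slc12a2 at 22.0 and 62.97 CPM and the amino acid transporter Slc7a1 at 26.7 and 55.1 CPM beside Clca1 and Fxyd4. WNT pathway genes had 0 of 11 higher and 1 lower, Axin2 at 14.9 and 5.25 CPM. Of 23 transcription factors 3 were higher, Klf6 (355 and 712 CPM), Cebpb and Ovol2, and 0 lower.

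Chemokines and cytokines had 3 of 7 measured members higher, Cxcl2, Cxcl10 and Cxcl17, and 2 lower, Il18 and Tgfb2. The neutrophil chemokine Cxcl2 was 5.5 and 36.7 CPM and the growth factor Tgfb2 84.9 and 34.1 CPM. Interferon and antigen presentation genes had 0 of 8 past 2-fold, with the class I gene H2-K1 at 321 and 438 CPM. Of 17 dissociation stress genes 0 were past 2-fold, at a median of -0.25, and of 10 mitochondrial transcripts 0, at a median of 0.25.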

How the data were processed

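Single uterine cells were measured in 2 libraries, 1 per genotype. The deposited matrices hold integer UMI counts per gene and barcode, and Cell Ranger 7.0.1 is the software per the file headers. The build mm39 and Seurat, with no version, are named per the submitters' processing notes.

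Stromal cells had at least 10 per 10,000 of the 3 stromal genes and under 5 of the epithelial genes. Immune or endothelial cells had at least 5 of 7 leukocyte and endothelial genes, and stayed under the other gates. UMIs were added up over each class of a library and expressed as CPM. Ratios carry exact conditional 95% intervals, levels Poisson and shares Clopper-Pearson intervals (scipy 1.17.1), tested on simulated data.

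Named genes were the 12 higher and 12 lower by the interval bound nearest 1, with 50 CPM or more in the higher library, at least 2-fold, and at least 0.25 of the level in every other class of that library. Gland-high and gland-low genes were ranked alike over both libraries, and genes with opposite directions in the 2 epithelial classes by the ratio of ratios, up to 6 each way. Genes of 35 lists were named beside their list's counts. Some genes that these rules named are not reported here. Members and lists were chosen with earlier results of these data known. Scrublet (scanpy 1.11.5) marked 11 and 44 barcodes automatically, so the highest scores, 171 and 78 barcodes, were removed in an alternative. The split by the 10 cells with the most Lcn2 and the level of 20 per 10,000 of the 12 gland-high genes were chosen after seeing the data.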

Additional observations from a re-analysis of the deposited data

Results flagged for a closer look

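Genes named here were at least 2-fold one way between the libraries in glandular cells and at least 2-fold the other way in other epithelial cells. The difference between the cell classes was not tested, since each genotype has 1 library. Aqp5, the water channel, was 751 and 220.4 CPM in glandular and 15.2 and 87.2 CPM in other epithelial cells, and the log2 of the glandular ratio divided by the other ratio was -4.28. It had a UMI in 94 of 103 and 57 of 102 glandular cells, and in 73 of 622 and 570 of 1333 other epithelial cells. Wfdc15b, a whey acidic protein, was 533 and 199 CPM against 23.7 and 51.0 CPM, at -2.53, and Slc16a6, a transporter, 55.0 and 24.9 CPM against 43.9 and 93.8 CPM, at -2.24.

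In the opposite direction, the noncoding RNA Rmst was 83.3 and 203 CPM in glandular and 299.7 and 44.5 CPM in other epithelial cells, at 4.04. Basp1, a membrane protein, was 45.6 and 127 CPM against 84.7 and 31.2 CPM, at 2.92, and Syt6, a synaptotagmin, 59.8 and 135 CPM against 62.8 and 19.4 CPM, at 2.87. Timp3, a metalloproteinase inhibitor, gave 2.88, the kinase gene Dgkh 2.68 and the phosphatase gene Dusp2 2.50.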

How the results depend on the processing

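No paired analysis was possible because each genotype has 1 library, and no replicate could be left out. The share of glandular cells among epithelial cells labelled knockout was 8.71% at a gland sum of at least 5 per 10,000, 4.32% at 50, and 4.88% with the 12 gland-high genes in place of the markers, an alternative chosen after seeing the data. The control share ranged from 12.8% to 14.5%. Genes at least 2-fold higher and lower numbered 401 and 463, 163 and 201 with cells thinned to 2000 UMIs, 90 and 91 of genes with at least 100 UMIs and 1176 and 1023 with at least 1, where fewer or more genes are measured. With the mean UMIs of immune or endothelial cells subtracted they were 1631 and 919, and the split of higher against lower turned; the cause was not tested. Fxyd4 turned to log2 -2.25 at a gland sum of at least 50 per 10,000 and -2.56 with the 12 gland-high genes. Among 658 alternative values of 55 named genes these were the 2 that reversed one of the 42 differences past 2-fold, and 19 put such a difference under 2-fold. Of 23 list medians 2 were past 2-fold, and 19 of 322 alternative medians changed sign, 6 of them under thinning and 4 with free RNA subtracted. Depth limits Lif, with 6 UMIs in cells labelled knockout, and Egfr, with 7 in the control.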

Other observations

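Proliferation genes had few UMIs in glands. Of 26 cell cycle genes 2 were measured in glandular cells, Pcna at 29.9 and 32.8 CPM and Tyms at 21.2 and 28.9 CPM. In other epithelial cells 24 of 26 measured members were at least 2-fold lower in the library labelled knockout, at a median of -2.52. There 14.6% of all 13153 measured genes were at least 2-fold lower. The summed list was 109 and 113 CPM in glandular cells and 437 and 131 CPM in other epithelial cells, so that in the library labelled knockout both classes lay near the glandular level. Snhg11, a noncoding RNA, was 36.2 and 6.56 CPM in glandular cells and 0.639 and 0.119 CPM in others. Tppp3, a microtubule protein of ciliated cells, was 21.2 and 1.31 CPM in glandular cells, on 27 and 1 UMIs.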
